A study of Gallus gallus with 8 samples.

Results

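In developing chick retina, the transcription factors Otx2 and Oc1 had peaks whose summits, averaged over 2 digestion times, lay within 75 bases of each other at 1397 regions of the genome. These regions were chosen from the peak lists of 4 CUT&RUN libraries, Otx2 and Oc1 at 25 and 30 min of digestion. Peaks overlapping by at least 1 base were joined into 22265 regions, without the mitochondrial chromosome. Of these, 2298 had a peak in all 4 lists, and 1976 had exactly 1 peak in each. A region was kept when the mean of its 2 Otx2 summits and the mean of its 2 Oc1 summits lay at most 75 bases apart. The 1397 regions that met this limit are 70.7% of the 1976 (Wilson 95% interval 68.7 to 72.7%, counting error over regions only) and 6.27% of all regions. The remaining 579 are called displaced below. Peak calls and summit positions thus chose the members. Fold enrichment, reads and widths belong to the same peaks and are given as a description, without tests.

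CUT&RUN uses an antibody to bring a nuclease to its target on chromatin, and the released fragments are sequenced. The summit of a peak is the position in it with the highest signal. Per the labels, the material was dissociated wild-type retina at stage E5, cut for 25 or 30 min with an antibody against Otx2 (Proteintech) or against Oc1 (Santa Cruz Biotechnology). Each antibody and time has 1 library, so no condition has a replicate, and the 2 times of a factor are the only repeat. The 4 H3K27me3 and IgG libraries of the series were not analysed here. Whole retina holds dividing progenitors and early neurons of several types. A stronger peak may come from more cells or from more binding per cell, which cannot be told apart here, and the lists do not show whether both factors sat on the same DNA molecule. Genes were not assigned, since the gene table at hand is of another genome build, so the labelled tissue was not checked against its marker genes.

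Otx2 is a homeodomain transcription factor required for photoreceptor development. Oc1, also called Onecut1, carries a cut domain beside its homeodomain and acts in the development of cone photoreceptors and horizontal cells. In mouse and chick retina both factors are known to act on a regulatory element of the thyroid hormone receptor beta gene, an early gene of the cone lineage.

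Reads were recovered from the fold and the p of each peak, as described under the processing. The lists held 9043 to 11494 peaks without the mitochondrial chromosome, and the median peak of a list rested on 6 to 8 reads at its summit. Members rested on a median of 10 reads in each of the 4 libraries. At least 6 reads in every library were present at 1044 of the 1397 members, a count not set against other regions here. At least 10 reads in every library were present at 300 members, and at 410 of all 1976 regions with 1 peak in each list. These counts describe depth and are not read as a trait of members. Read numbers of Otx2 at 30 min are given before the scaling by 0.845 that was used in calling.

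The 12 members with the highest smallest −log10 q over the 4 lists show what such a region looks like. Coordinates follow galGal5, the build in the submitters' processing notes, and count from 1. The first member lay on chromosome 3, from 23468092 to 23468918. Its fold enrichment was 16.2 and 16.4 for Otx2 and 22.9 and 28.5 for Oc1 at 25 and 30 min, with 20, 22, 31 and 37 reads. The 2 Otx2 summits lay at 23468576 and 23468386, and the Oc1 summits at 23468481 and 23468612. All 4 libraries were high here, but the 4 summits spread over 226 bases, and the distance of the means was 65.5 bases.

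The second member lay on chromosome 11, from 17879067 to 17879710. Its folds were 27.04 and 23.8 for Otx2 and 15.2 and 20.9 for Oc1 at 25 and 30 min, with 31, 30, 17 and 24 reads. Here the 4 summits lay within 44 bases of each other, between 17879339 and 17879383. The Otx2 peaks ranked 5th and 3rd of their lists, and the Oc1 peaks ranked 272nd and 70th. The third member lay on chromosome 5, from 54571583 to 54572622, with folds of 12.9 and 15.5 for Otx2 and 16.7 and 15.2 for Oc1. Its 4 summits lay within 57 bases, and the local background was 10.2, 4.96, 5.49 and 4.96 times the genome-wide one. It was thus strong in all libraries over a background that was itself high.

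The fourth member, on chromosome 17 from 8218041 to 8219186, held the second strongest peak of both Oc1 lists. Its folds were 22.8 and 14.6 for Otx2 and 37.9 and 38.4 for Oc1, with 26, 18, 44 and 45 reads. The fifth lay on chromosome 2, from 17144459 to 17145208, with folds of 17.01 and 14.6 for Otx2 and 16.2 and 15.04 for Oc1. The sixth lay on chromosome 24, from 3060842 to 3061699, with folds of 15.8 and 14.6 for Otx2 and 15.7 and 15.9 for Oc1. Both regions had nearly even values over the libraries, and their summits lay within 46 and 100 bases.

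The other members of the 12 lay on chromosomes 26, 17, 11, 11, 19 and 3. The tenth, on chromosome 11 from 4030549 to 4031417, had 17 and 19 reads for Otx2 and 30 and 38 reads for Oc1. The eleventh, on chromosome 19 from 2132930 to 2133431, was the most compact of the 12 in its summits. They lay within 40 bases, in a region of 502 bases. The twelfth, on chromosome 3 from 68536629 to 68537481, had the widest spread. Its Otx2 summits lay at 68536940 at 25 min and at 68537199 at 30 min, and its Oc1 summits at 68537237 at 25 min and at 68536979 at 30 min. The mean summits were 38.5 bases apart, although the summits of each factor had moved far between the times, in opposite directions.

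**Figure D1:**
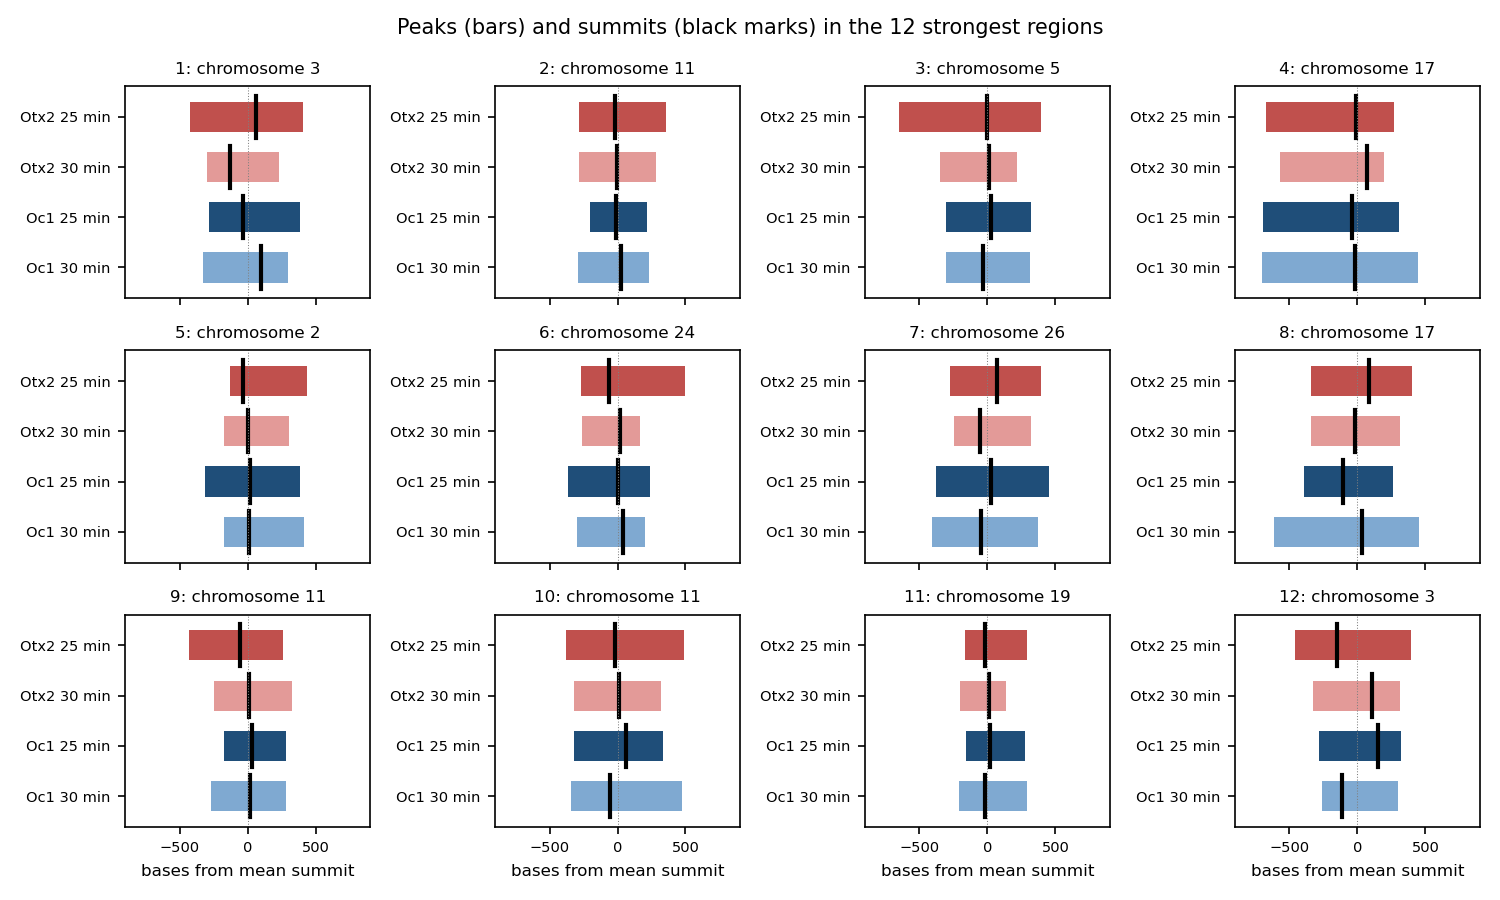
Extent of the 4 peaks (bars) and their summits (black marks) in the 12 members with the highest smallest −log10 q; the x axis gives bases from the mean of the Otx2 and Oc1 mean summits, 1 row per library. Summits of the second and the eleventh region lie within 44 and 40 bases, while those of the first and the twelfth spread over 226 and 297 bases.

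The mean summits of members lay a median of 31.5 bases apart, with a middle range (25th to 75th percentile) of 15.5 to 49.5 bases, against a median of 110.5 bases in displaced regions. This follows from the limit. The mean distance was at most 10 bases at 238 members and 0 at 6. The Otx2 mean lay at the lower coordinate at 681 members and at the higher at 710, so the counts on the 2 sides were close. There was no gap in the distances around the limit. Members over 65 bases apart numbered 124, and displaced regions of up to 85 bases numbered 94.

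The distance between the factors was compared with the distance between the times of 1 factor, which the limit did not use. Joining peaks by overlap and asking for 1 peak in each list itself bounds both kinds of distance. Over all 1976 regions, the Otx2 summits at 25 and 30 min lay a median of 58 bases apart (95% interval of the median over regions, 54 to 62). The Oc1 summits lay a median of 53 bases apart (48 to 57). At 25 min the summits of Otx2 and Oc1 lay a median of 60.5 bases apart (57 to 64), and at 30 min 64 bases (60 to 67). Otx2 at 25 min and Oc1 at 30 min lay a median of 59 bases apart, as did Otx2 at 30 min and Oc1 at 25 min. The 4 distances between factors were thus close to the distance between the times of Otx2 and larger than that between the times of Oc1. The 2 repeats were not alike in their lists. The shortest peak was 157 and 107 bases in the Otx2 lists at 25 and 30 min, against 194 and 200 bases in the Oc1 lists. The part of this in the distances was not tested. At most 75 bases separated the factors in 59.9% of regions at 25 min and in 57.7% at 30 min. The same limit held for 60.6% of regions between the times of Otx2 and for 64.1% between the times of Oc1. In these libraries a summit of the other factor lay about as far away as the repeat of Otx2 itself, and somewhat farther than the repeat of Oc1. This holds for regions picked by the overlap of all 4 peaks, and the part of that choice in the distances was not tested.

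Deeper regions gave a like order. In the 410 regions with at least 10 reads in all 4 libraries, the medians were 56 bases between factors at 25 min and 60.5 bases at 30 min. Between times they were 56.5 bases for Otx2 and 44 bases for Oc1, so only the repeat of Oc1 came out clearly shorter. Such regions met the limit in 73.2% of cases. Of the 1976 regions, the 25% with the highest smallest −log10 q met it in 73.3% of cases (Wilson 95% interval 69.2 to 77.0%). The 25% with the lowest met it in 67.6% (63.4 to 71.6%).

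**Figure D2:**
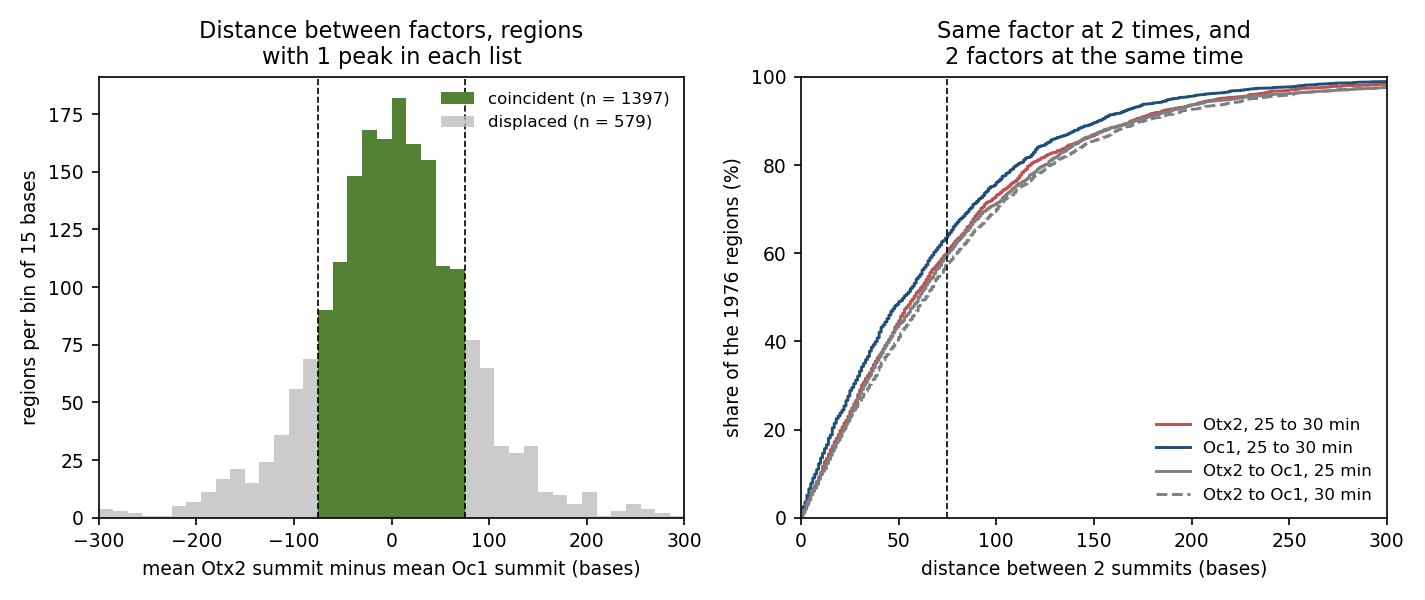
Left, mean Otx2 summit minus mean Oc1 summit in bases, as regions per bin, for 1397 coincident and 579 displaced regions, with dashed lines at 75 bases; 300 bases are shown on each side. Right, cumulative share of the 1976 regions (y axis, %) by distance between summits (x axis, bases), where the curves between the factors lie close to the curve between the times of Otx2 and below that of Oc1.

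Because the rule took means over the times, members were not coincident in every library. At 25 min the factors' summits lay at most 75 bases apart at 1017 members, and at 30 min at 990. Both times met the limit at 739 members (52.9%), and neither time met it at 129. At those 129 the factors had changed sides between the times, so that the means came close. All 4 summits lay within a span of 75 bases at 413 members (29.6%), and the median span was 100 bases, against 196 bases in displaced regions. The side on which Otx2 lay was the same at both times in 54.7% of the 1956 regions where no distance was 0. Among members it was the same in 41.0% and among displaced regions in 87.3%, shares that the limit on the mean itself pushes apart.

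The 3 members with the narrowest summit span were not among the 12 strongest. On chromosome 3, from 61370019 to 61370438, the 4 summits lay within 6 bases, with 4 and 6 reads for Otx2 and 6 and 9 reads for Oc1. On chromosome 9, from 12226608 to 12227345, they also lay within 6 bases, with 15 and 11 reads for Otx2 and 17 and 16 reads for Oc1. On chromosome 1, from 152948549 to 152949169, they lay within 7 bases, with 8 and 5 reads for Otx2 and 18 and 17 reads for Oc1. These 3 regions were picked after their values were seen. None of the 12 strongest members had so narrow a span. Over all members, the median span was 94 bases in the 25% with the highest smallest −log10 q. It was 101 bases in the 25% with the lowest.

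The peaks of a member also shared a stretch of DNA. The 4 peaks had a common interval at 1372 members (98.2%), against 524 displaced regions (90.5%). Where present, it had a median length of 191.5 bases in members and 174 bases in displaced regions. All 4 summits lay inside it at 887 members (63.5%), against 142 displaced regions (24.5%). At the other 25 members the 4 peaks were joined as a chain with no base in common. The rule asked for joined peaks with near mean summits, which itself favours both shares at members. Member regions were narrower than displaced ones, with a median of 515 bases (25th to 75th percentile 422 to 630) against 591 bases (487.5 to 736.5). Single peaks followed this in 3 libraries, with median widths of 358 against 386 bases for Otx2 at 25 min, 378 against 403 for Oc1 at 25 min and 403 against 441 for Oc1 at 30 min. For Otx2 at 30 min the widths were 259 against 253 bases. The part of width in meeting the limit was not tested.

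The narrowest member lay on chromosome 10, from 12627419 to 12627649, with 7 and 10 reads for Otx2 and 6 and 10 for Oc1. The widest lay on chromosome 1, from 14157696 to 14159024. Its folds were 20.3 and 10.6 for Otx2 and 16.8 and 7.11 for Oc1 at 25 and 30 min. The reads were 23 and 18 for Otx2 and 19 and 20 for Oc1. Both factors had the lower fold at 30 min there, where the local background was 4.96 and 9.92 times the genome-wide one, while at 25 min it was at the genome-wide level in both lists.

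Fold enrichment, the authors' value for each peak, was higher at members than in the lists they came from. For Otx2 the median was 7.60 at members, 7.39 at displaced regions and 5.85 in the whole list at 25 min. At 30 min the Otx2 medians were 7.26, 6.94 and 6.24 in the same order. For Oc1 the medians were 7.88, 7.32 and 5.89 at 25 min, and 8.09, 7.62 and 5.85 at 30 min. Members thus stood above their list in every library, and 0.21 to 0.56 above displaced regions. The intervals of that difference over regions were -0.0869 to 0.829 for Otx2 at 25 min and -0.301 to 0.755 for Oc1 at 30 min. They were 0.0544 to 0.960 for Otx2 at 30 min and 0.164 to 1.02 for Oc1 at 25 min. These intervals cover counting over regions only, and regions are not replicates, so they are no test between the parts. The difference from displaced regions was small beside the spread among members, whose middle ranges were 5.90 to 10.1 and 5.70 to 9.30 for Otx2 and 5.91 to 10.6 and 5.85 to 11.1 for Oc1. It was not stable, and for Oc1 at 25 min it was -0.0227 when only peaks with −log10 q of at least 5 were used. With summits of 30 min alone it was -0.137 for Otx2 at 25 min. Regions with 1 peak at each time of 1 factor and no peak of the other had medians of 6.26 and 6.24 for Otx2, and 5.89 and 6.07 for Oc1. A region had to pass calling in all 4 lists to be a member, which by itself favours strong peaks.

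**Figure D3:**
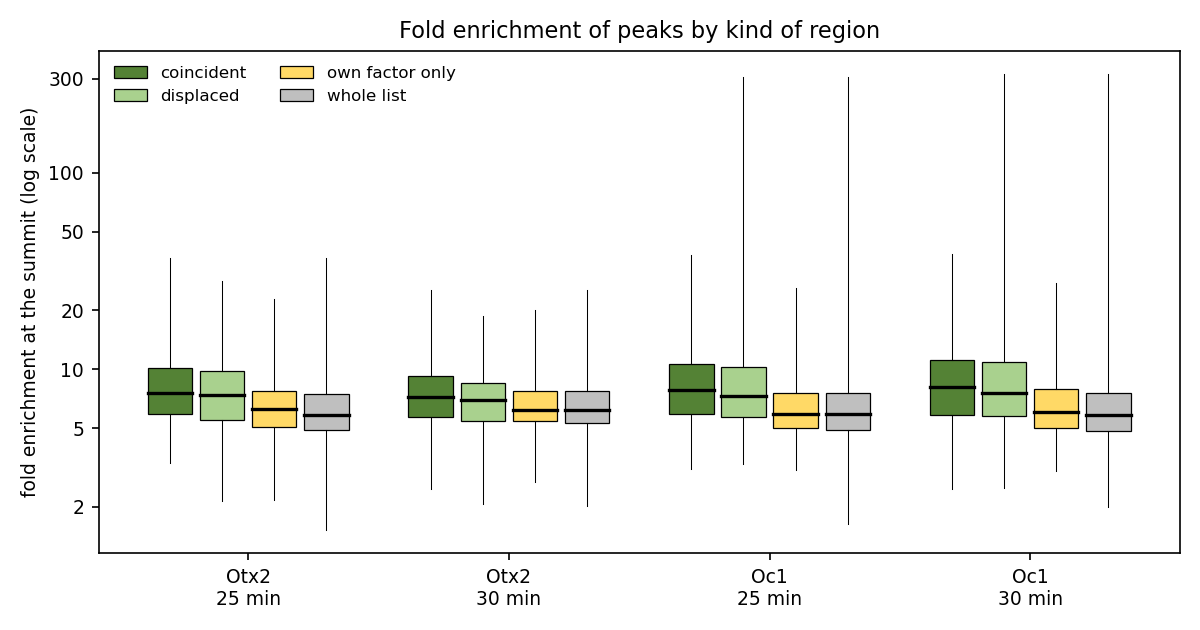
Fold enrichment at the summit (log axis) by library for coincident regions, displaced regions, regions with both times of the same factor only, and all peaks of the list. Boxes span the 25th to 75th percentile with the median as a line, and thin lines reach the lowest and highest peak. The coincident medians lie between 7.26 and 8.09, above the list medians of 5.85 to 6.24.

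Ranked by −log10 q within their own list, members were frequent among the strongest peaks. Of the members, 377 (26.99%) had their peak among the strongest 10% of the Otx2 list at 25 min, against 142 (24.5%) of the displaced regions, where 10% of all peaks of that list pass this mark. In the Otx2 list at 30 min there were 293 members (21.0%), against 100 displaced regions (17.3%). In the Oc1 list at 25 min there were 353 members (25.3%), against 134 displaced regions (23.1%). In the Oc1 list at 30 min there were 381 members (27.3%), against 164 displaced regions (28.3%). The background is 10% in each of the 4 lists, so both kinds of region stood above it, and members exceeded displaced regions in 3 of the 4 lists only. All 4 lists placed the peak among their strongest 10% at 47 members (3.36%), against 14 displaced regions (2.42%). No list did at 601 members (43.0%), against 258 displaced regions (44.6%). Of the strongest 100 peaks, members held 49 and 48 in the Otx2 lists and 46 and 48 in the Oc1 lists. Displaced regions held 12, 14, 18 and 18 in the same order. Members made up 12.2% and 15.4% of the Otx2 lists and 14.3% and 13.1% of the Oc1 lists. Displaced regions, fewer in number, made up 5.04% and 6.40% of the Otx2 lists and 5.92% and 5.43% of the Oc1 lists. In the weakest 10% members made up 5.30% and 13.1% for Otx2, and 6.24% and 5.44% for Oc1, so members were not confined to strong peaks.

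Members and displaced regions both lay over a raised local background more often than all peaks of their lists, at shares close to each other. The control used in calling is not given, and this background is the level that fits the fold and the p of each peak. It exceeded 2 times the genome-wide level at 39.1% of members for Otx2 at 25 min, against 39.4% of displaced regions and 23.6% of all peaks of that list. For Otx2 at 30 min the shares were 19.2%, 17.1% and 12.3% in the same order. For Oc1 they were 44.9%, 43.0% and 34.3% at 25 min, and 26.1%, 25.2% and 16.2% at 30 min. The background exceeded 2 times in all 4 libraries at 120 of the 1397 members. That count was not set against other regions here and is not read as a trait of members. Among the 761 regions that stayed at or below 2 times in all 4 libraries, 548 met the summit limit. The part of the background in the folds was not tested.

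Folds at members were more alike between the times of 1 factor than between factors. Across the 1397 members, fold enrichment at 25 and 30 min had a Spearman's rho of 0.440 for Otx2 and of 0.545 for Oc1. Between factors, rho was 0.0985 for Otx2 at 25 min with Oc1 at 30 min, and 0.0961 for Otx2 at 30 min with Oc1 at 25 min. These values describe the members, which are not independent replicates. Between the factors at the same time, rho was 0.221 at 25 min and 0.184 at 30 min. The same-time values are not read as a result on the factors. Local background enters the fold and was ranked alike in the lists of 1 time. Whether these lists share a control was not tested. The local backgrounds of both factors had a rho of 0.787 at 25 min and 0.803 at 30 min, against 0.178 to 0.194 across times. In displaced regions the values across times were 0.475 for Otx2, 0.565 for Oc1, and 0.119 and 0.0931 between factors, in the order above. Both values of rho between factors across times at members were thus below both values between the times of 1 factor.

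**Figure D4:**
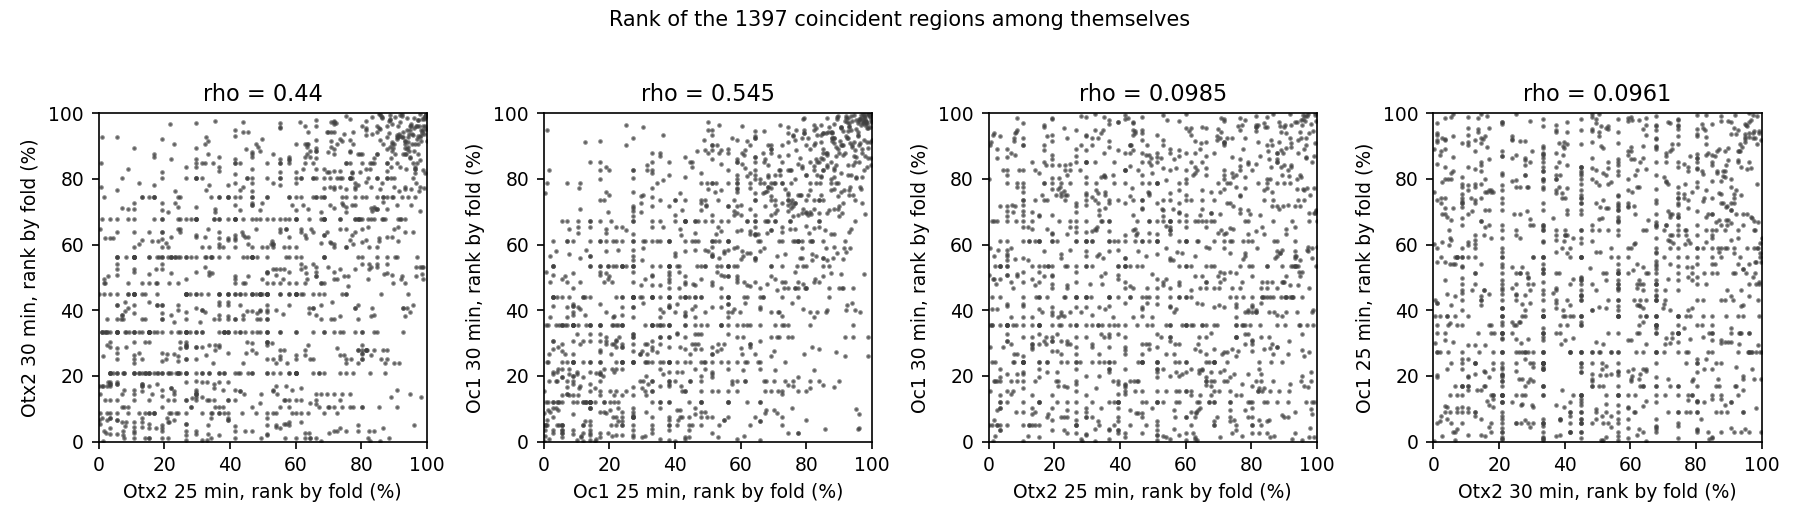
Each point is 1 of 1397 coincident regions, placed by its rank by fold among these regions (x and y axes, % of regions, 100 the highest), for 4 library pairs. Both panels of 1 factor at 25 and 30 min show a trend (rho 0.440 and 0.545), and both panels of different factors at different times are nearly without one (0.0985 and 0.0961). Rows and columns of points are tied values from small read numbers.

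Regions were then picked that ranked high for 1 factor and low for the other, in the upper and the lower 25% of members by fold at both times. For high Otx2 and low Oc1 there were 10 members (0.716%), against 0.607% of all 1976 regions with the ranks taken over them. For high Oc1 and low Otx2 there were 11 members (0.787%), against a background of 0.81%. In the upper 25% of all 4 libraries there were 45 members (3.22%), with a background of 3.29%. In the lower 25% of all 4 there were 24 (1.72%), with a background of 1.77%. All 4 shares were near the background of regions with 1 peak in each list.

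The clearest member with high Otx2 and low Oc1 lay on chromosome 1, from 85245929 to 85246951. Otx2 had folds of 19.9 and 16.2 with 24 and 20 reads, and Oc1 had folds of 4.76 and 5.01 with 5 reads at each time. On chromosome 1, from 172792655 to 172793329, Otx2 had 24 and 19 reads and Oc1 4 and 7. On chromosome 4, from 913250 to 913715, Otx2 had 21 and 18 reads and Oc1 5 and 8. The Otx2 peaks of these regions ranked between 39th and 301st in their lists, while the Oc1 peaks ranked between 5903rd and 9382nd in theirs.

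All 3 clearest members with high Oc1 and low Otx2 lay on chromosome 4. The first, from 85408088 to 85408803, had folds of 4.22 and 5.33 for Otx2 and of 17.2 and 15.9 for Oc1, with 4, 6, 25 and 19 reads. The next, from 85023558 to 85024133, had 6 and 10 reads for Otx2 and 22 and 30 for Oc1. The last, from 72221129 to 72221758, had 6 reads for Otx2 at each time and 20 and 18 for Oc1. At each of these 6 regions the stronger factor had more reads at either time than the weaker one had at any time, and the weaker one had at most 10. Picking the regions by fold, which rests on the same reads, itself favours this order.

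Regions around the limit held both weak and strong peaks. On chromosome 1, from 7425454 to 7425891, the mean summits lay 75 bases apart, with 6 and 5 reads for Otx2 and 11 at each time for Oc1. On chromosome 1, from 55064922 to 55065624, they also lay 75 bases apart, with 16 and 15 reads for Otx2 and 17 and 16 for Oc1. On chromosome 10, from 15122287 to 15122709, the distance was 75 bases as well, with 8 and 10 reads for Otx2 and 7 and 4 for Oc1. A further member lay at 75 bases, which makes 4 in all. Just outside, at 75.5 bases, were regions on chromosome 1 (from 43490698 to 43491334), chromosome 13 (from 16792433 to 16793005) and chromosome 3 (from 8574646 to 8574975). Their smallest read numbers over the libraries were 17, 6 and 5, and the first of them had no stretch common to the 4 peaks and a local background of at least 30.5 times the genome-wide one.

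Members lay near other bound regions. The nearest region of any kind was a median of 3.69 kb away from members, 3.83 kb from displaced regions and 6.11 kb from all 22265 regions. The median was 4.14 kb from regions with Otx2 alone at both times and 8.38 kb from those with Oc1 alone. Another region with peaks in all 4 lists lay within 10 kb of 348 members (24.9%, Wilson 95% interval 22.7 to 27.2%). This held for 24.5% of displaced regions (21.2 to 28.2%). It held for 14.5% (13.2 to 15.9%) of the 2580 regions with Otx2 alone at both times and for 10.9% (9.69 to 12.2%) of the 2400 with Oc1 alone at both times. The share was 14.3% over all regions. Members and displaced regions thus had like neighbourhoods within their counting error, and both had more such neighbours than regions of 1 factor. Regions near each other each count the other, so the counts are not independent.

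**Figure D5:**
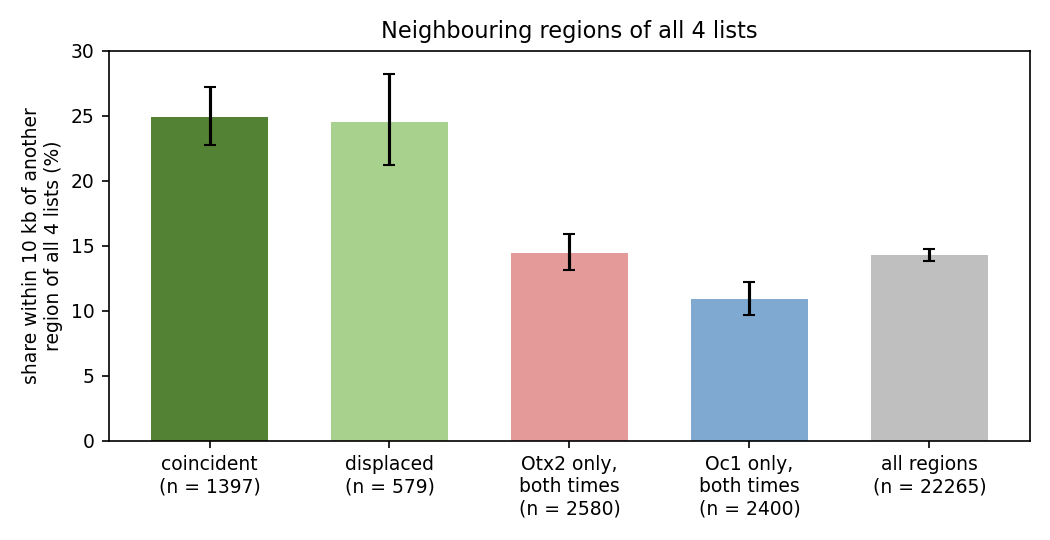
Share of regions (y axis, %) with another region of all 4 lists within 10 kb, measured between centres, by kind of region; bars start at 0 and error lines are Wilson 95% intervals. Coincident and displaced regions reach 24.9% and 24.5%, against 14.5% and 10.9% of regions with 1 factor.

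Another member lay within 10 kb of 233 members (16.7%). A member lay as near to 90 displaced regions (15.5%) and to 9.27% of all regions. Linking members at up to 10 kb left 1164 on their own and gave 98 pairs, 7 groups of 3 and 4 groups of 4. The most compact group of 4 lay on chromosome 23, from 3998193 to 4006602, a stretch of 8.41 kb. Its second member, from 3999029 to 3999643, was the strongest, with folds of 15.2 and 14.6 for Otx2 and 8.33 and 6.68 for Oc1. Its first member, from 3998193 to 3998685, had folds of 4.31 and 7.01 for Otx2 and 9.24 and 10.02 for Oc1. The second had 17 and 18 reads for Otx2 and 9 and 7 for Oc1, and the first had 6 and 8 for Otx2 and 13 and 11 for Oc1, so these neighbours differed in which factor had more reads. The fourth member, from 4005966 to 4006602, had Otx2 summits 339 bases apart and met the limit by their mean. The other groups of 4 lay on chromosome 9 (from 7673339 to 7689304), chromosome 21 (from 1400770 to 1417026) and chromosome 5 (from 54554778 to 54572622). The group on chromosome 5 ends with the third strongest member.

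Members were found on 29 of the 33 chromosomes and linkage groups with regions, and the 4 without one held 2 to 7 regions each. Chromosomes 1, 2 and 3 held 184, 161 and 117 members, or 5.72%, 6.17% and 6.04% of their regions. The Z chromosome held 86 members, 7.80% of its 1103 regions (Wilson 95% interval 6.36 to 9.53%). The highest share among chromosomes with at least 100 regions was 9.17% on chromosome 15 (7.03 to 11.9%, 50 of 545 regions). The lowest was 2.79% on chromosome 27 (1.20 to 6.37%, 5 of 179 regions). Chromosome 10 had the highest proportion of its regions with 1 peak in each list inside the limit, 57 of 67 (85.1%). These extremes were read off after all chromosomes were computed, and no test was made of them.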

How the data were processed

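CUT&RUN peak lists of 4 libraries were used, 1 per antibody and time. Per the submitters' processing notes, the tools were Bowtie2, SAMtools, deepTools and MACS2 and the build galGal5; settings, control and duplicate handling are not given in the sources used here. The deposited lists give each peak's fold enrichment (a ratio), −log10 p and −log10 q, a score and the summit offset. In every row the deposited score is −log10 q multiplied by 10, without its decimals.

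Reads k and background λ per peak were solved from fold = (ck + 1)/(λ + 1) and the Poisson p, to within 0.002 in −log10 p. This succeeded for 100% of peaks, with c = 1 or, for Otx2 at 30 min, 0.845. The smallest fitting k was taken. The genome-wide background is the smallest one shared by at least 1% of peaks. Depth in units of the genome size used in calling was 1.17, 1.19, 0.967 and 0.985 reads per kb (Otx2 at 25 and 30 min, Oc1 at 25 and 30 min).

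Python 3.11.15, pandas 2.3.3 and SciPy 1.17.1 were used. Joining and read recovery were tested on simulated data. Intervals (Wilson, or order statistics for medians) cover counting over regions only. For a difference of 2 medians, the distances from each median to its limits were combined as the root of their summed squares. No p-values were computed, since each condition has 1 library and regions are not replicates. Named regions follow a fixed rule: the 12 highest by smallest −log10 q, 3 per direction of unequal strength, 3 on each side of the limit, the largest group and the extremes of width. The 3 members with the narrowest summit span were added after their values were seen. Members and rules were chosen with earlier results of these data known. Results on motifs, start sites and sequences were planned but need a galGal5 genome and were not run.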

Additional observations from a re-analysis of the deposited data

How the results depend on the processing

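The number of members was 1397, and the share of regions meeting the limit was 70.7%. A limit of 50 bases gave a share of 53.5%, with 13.2% of members within 10 kb of another and 6 and 7 regions of unequal strength (high Otx2, high Oc1). A limit of 100 bases gave 82.5% and 19.0%. Peaks with −log10 q of at least 5 left 675 members. Their median folds were 9.24 and 8.53 for Otx2 and 9.24 and 10.02 for Oc1, 10.1% had another member within 10 kb, and members minus displaced regions in median fold was -0.0227 for Oc1 at 25 min. Summits of 25 min alone gave a share of 59.9%. Those of 30 min alone gave 57.7%, and differences in median fold of -0.137 for Otx2 at 25 min and 0.129 for Oc1 at 25 min. Taking the strongest of 1 or more peaks per list gave 66.2%. A neighbour distance of 50 kb gave 33.9%, and wider classes than the upper and lower 25% gave 23 and 31 regions of unequal strength. Chosen after seeing the data were the limit at each time (739 members), all 4 summits within 75 bases (413), and at least 10 reads (73.2%). Members with at least 10 reads in every library had a median of 41 bases between the Oc1 times, against 48 at all members. For Otx2 these medians were 51.5 and 53 bases. The causes of these shifts were not tested. The other 99 values stayed within the intervals of the main results or, for counts, kept a similar size. Some differences in median fold, members minus displaced regions, still fell to 0, as their intervals were wide. Peaks with −log10 q of at least 5 gave 0.617 and 0.273 for Otx2. For Oc1 at 30 min they gave 0. Local background of at most 2 times in all 4 libraries was also chosen after seeing the data. This setting gave 0 and 0.234 for Otx2 and 0.842 and 0.732 for Oc1. The range allowed for counts was wide, for the members 931.3 to 2095.5. Within it, the member count was 1057 at 50 bases and 1631 at 100 bases. Summits of 25 min and of 30 min alone gave 1184 and 1140 members. The antibodies share their digestion times, but no paired fit was made, since no result here comes from a test. Depth is low, with a median of 10 reads at the summit of members, and its part in the summit distances was not settled. Alternatives on motifs and start sites were not run.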
